A study of Mus musculus with 15 samples.

Results

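The genes that present peptides to T cells were compared in EVP (endovascular progenitor), TA (transit amplifying) and D (definitive differentiated) cells of mouse melanoma. The set held 59 of the 53465 genes of the normalized count table: every gene whose name starts with H2- and 14 further genes of antigen processing and presentation (B2m, Tap1, Tap2, Tapbp, Psmb8, Psmb9, Psmb10, Nlrc5, Ciita, Cd74, Erap1, Calr, Pdia3 and Cd1d1). Of these, 44 belonged to the class I pathway, 12 to the class II pathway, and 3 (H2-Ke6, H2-Pa and H2-Pb) were placed in neither. Averaged over the 15 libraries, 45 genes reached 5 normalized counts or more, 33 of class I, 11 of class II and H2-Ke6. On chromosome 17, which carries the mouse major histocompatibility complex H2, lay 50 of the 59 genes.

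B16-F0, a mouse melanoma line, was grown in the skin of CAG-GFP transgenic mice, which express GFP in all tissues, and the tumors were collected at day 15. Host cells that were GFP+, negative for a hematopoietic lineage cocktail (Lin-) and CD34+ were sorted by flow cytometry into EVP (CD31lo VEGFR2lo), TA (CD31int VEGFR2lo) and D (CD31hi VEGFR2hi), with 5 RNA sequencing libraries per population. All groups shared the transgene and the tumor, no tumor-free group was used here, and the study used adult mice of both sexes. How many animals went into a library is not given in the sources used here, so the p-values measure the spread between these libraries, which may in part be technical.

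Class I molecules are a heavy chain (H2-K1 and H2-D1 are the classical ones in these mice) bound to beta-2 microglobulin (B2m), and nearly every nucleated cell carries them. Peptides are cut by the proteasome, pumped into the endoplasmic reticulum by the Tap1 and Tap2 transporter, trimmed by Erap1 and loaded with the help of tapasin (Tapbp), Calr and Pdia3. Non-classical class I genes of the H2-Q, H2-T and H2-M regions have narrower ligands or expression. Class II molecules (H2-Ab1 with H2-Aa) present peptides from endosomes to CD4 T cells, mainly on dendritic cells, macrophages and B cells. Endothelial cells can acquire them under interferon gamma. The class II invariant chain Cd74 blocks the groove until H2-DM exchanges its last fragment for peptide. H2-O restrains H2-DM, and the coactivator Ciita switches the group on, as Nlrc5 does for class I. H2-Eb1 is the beta chain of I-E. The I-E alpha gene, H2-Ea-ps, is annotated as a polymorphic pseudogene and averaged 3.46 normalized counts, so H2-Eb1 RNA need not stand for a presenting molecule.

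The libraries held 5394356 to 26513073 reads on genes (median 19049194), so that 3 reads corresponded to between 1.81 and 10.5 normalized counts. The lowest depth was that of EVP replicate 1. Reads on 1406 olfactory receptor genes, a family known from the nose, were found for 55.4 to 96.2% of the genes in EVP replicates 1 and 2, TA replicates 1 and 3 and D replicate 1, for 51.7% in TA replicate 2 and for 2.70 to 21.5% in the other libraries. The sum of 10 endothelial markers was 103000 to 163000 normalized counts in D, 5980 to 72900 in TA and 2380 to 4280 in EVP. That of 8 fibroblast markers was 979 to 4060 in D, 191000 to 606000 in TA and 841000 to 1490000 in EVP. For 6 melanoma markers it was 18200 to 47800 in D, 69200 to 176000 in TA and 29700 to 67300 in EVP. For 6 markers of mural cells (pericytes and smooth muscle) it was 3870 to 8310, 4820 to 150000 and 7050 to 33400 in the same order. In the study's lineage tracing, nearly all Lin-CD34+ tumor cells carried the label driven by the endothelial gene Cdh5. That tracing used Cdh5-CreER RosaYFP mice, not the CAG-GFP mice sequenced here. The endothelial sum was highest in D, lower in TA and lowest in EVP. Pecam1 (CD31) and Kdr (VEGFR2) are among its 10 markers, and the sort itself took EVP low in both. For 9 of the 10 every D library was above every EVP library (17.7% of all genes were without overlap, in either direction). Tek overlapped, at 585.0 to 2335 in EVP and 1689 to 3373 in D. The part of these differences in the results below was not tested, and in such bulk samples fewer cells of a type and less RNA per cell cannot be told apart.

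Promoter windows of 5 genes are shown because these genes stand for the patterns described below. H2-D1 was high in all populations, H2-Q10 and H2-T23 were higher in EVP and TA than in D, and H2-Eb1 and H2-Ob are class II genes with large differences between libraries. The windows are RefSeq sequence of GRCm38.p6, from 250 bases before to 50 bases after the annotated start, 5′ to 3′ on the gene's strand. Capitals mark matches, on either strand, to an interferon-stimulated response element (TTTCNNTTTC), to the Y box (ATTGG) and to the core of the X1 box (AGCAAC), the last 2 being the letters on which the class II enhanceosome (NF-Y and RFX) is known to assemble.
H2-D1 (chr17:35262844-35263143, plus strand): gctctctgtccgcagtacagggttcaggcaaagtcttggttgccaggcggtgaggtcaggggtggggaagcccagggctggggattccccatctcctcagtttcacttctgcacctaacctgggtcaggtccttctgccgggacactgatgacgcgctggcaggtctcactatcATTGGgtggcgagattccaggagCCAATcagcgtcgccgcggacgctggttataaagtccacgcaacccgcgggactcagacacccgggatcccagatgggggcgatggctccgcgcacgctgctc
H2-Q10 (chr17:35469839-35470138, plus strand): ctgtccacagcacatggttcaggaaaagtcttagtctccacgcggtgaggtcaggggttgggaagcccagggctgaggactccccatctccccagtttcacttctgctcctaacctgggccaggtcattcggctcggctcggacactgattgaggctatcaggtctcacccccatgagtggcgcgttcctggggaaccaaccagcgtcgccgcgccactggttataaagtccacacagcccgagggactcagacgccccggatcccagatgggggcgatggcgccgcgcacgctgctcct
H2-T23 (chr17:36032652-36032951, minus strand): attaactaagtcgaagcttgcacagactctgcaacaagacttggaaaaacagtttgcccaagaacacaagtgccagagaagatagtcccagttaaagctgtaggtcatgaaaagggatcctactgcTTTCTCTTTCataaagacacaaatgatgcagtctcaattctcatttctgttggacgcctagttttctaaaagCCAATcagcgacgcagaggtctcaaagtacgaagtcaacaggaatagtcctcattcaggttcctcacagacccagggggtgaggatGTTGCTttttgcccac
H2-Eb1 (chr17:34305617-34305916, plus strand): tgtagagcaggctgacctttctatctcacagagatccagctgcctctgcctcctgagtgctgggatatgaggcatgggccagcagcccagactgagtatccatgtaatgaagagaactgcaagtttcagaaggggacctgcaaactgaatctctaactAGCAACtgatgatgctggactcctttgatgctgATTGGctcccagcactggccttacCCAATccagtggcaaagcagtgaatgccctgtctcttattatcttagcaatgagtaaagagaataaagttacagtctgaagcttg
H2-Ob (chr17:34238655-34238954, plus strand): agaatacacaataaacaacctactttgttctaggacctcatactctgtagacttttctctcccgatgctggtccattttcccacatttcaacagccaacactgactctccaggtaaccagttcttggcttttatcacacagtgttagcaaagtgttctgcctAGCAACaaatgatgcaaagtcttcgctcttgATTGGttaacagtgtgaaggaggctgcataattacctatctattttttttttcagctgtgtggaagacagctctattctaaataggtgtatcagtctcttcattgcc

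At least 1 promoter window was matched for 34 of the 45 genes. Some genes had more than 1, and a gene was counted where any of its windows held the letters. The shares of all promoters given beside these counts take each promoter by itself. The exact letters TTTCNNTTTC were found in 4 of 25 class I genes (B2m, Erap1, H2-T22 and H2-T23) and in 0 of 8 class II genes. They were found in 3.40% of the 32851 promoters searched. Variants of the response element were not searched, so a window without these letters may still hold one. The H2-D1 and H2-Q10 windows, for example, both hold the near letters tttcacttct. A Y box was found in 20 of 25 class I and in 8 of 8 class II genes, against 37.4% of all promoters. H2-DMa was counted through a window with a Y box at -198, while another of its windows held none. The X1 core was found in 3 of 25 class I genes and in 4 of 8 class II genes (H2-Eb1, H2-Eb2, H2-Oa and H2-Ob), against 14.8%. In H2-Eb1 the X1 core began at position -92 and the Y box at -59 from the start site, and in H2-Ob they began at -88 and -57, so that both genes hold them in the same order at a like distance. The H2-Q10 window held none of the 3 sets of letters, whereas that of H2-D1 held a Y box at -76 and its reverse at -53. These matches are descriptions of sequence, not of binding.

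Levels per kilobase of gene model placed B2m first in every population, with a mean of 41970 normalized counts per kb in EVP, 36980 in TA and 42180 in D. In D the next were H2-D1 (18270 per kb), the loading factor Pdia3 (11640) and H2-K1 (4958), and no class II gene was above Cd74 at 993 per kb. In TA, Cd74 was the second of all (17640 per kb) and H2-Ab1 (10130) came between Pdia3 and H2-K1. EVP lay between them, with Cd74 at 4927 per kb and H2-Ab1 at 2948, next below H2-K1. Because the TA libraries differed so widely in class II, as given below, the ranks of Cd74, H2-D1, Pdia3 and H2-Ab1 in TA did not differ beyond their spread. At the other end, the coactivators were low, with Ciita at 21.1, 40.4 and 4.16 per kb and Nlrc5 at 24.8, 39.2 and 29.7 per kb in EVP, TA and D.

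**Figure D1:**
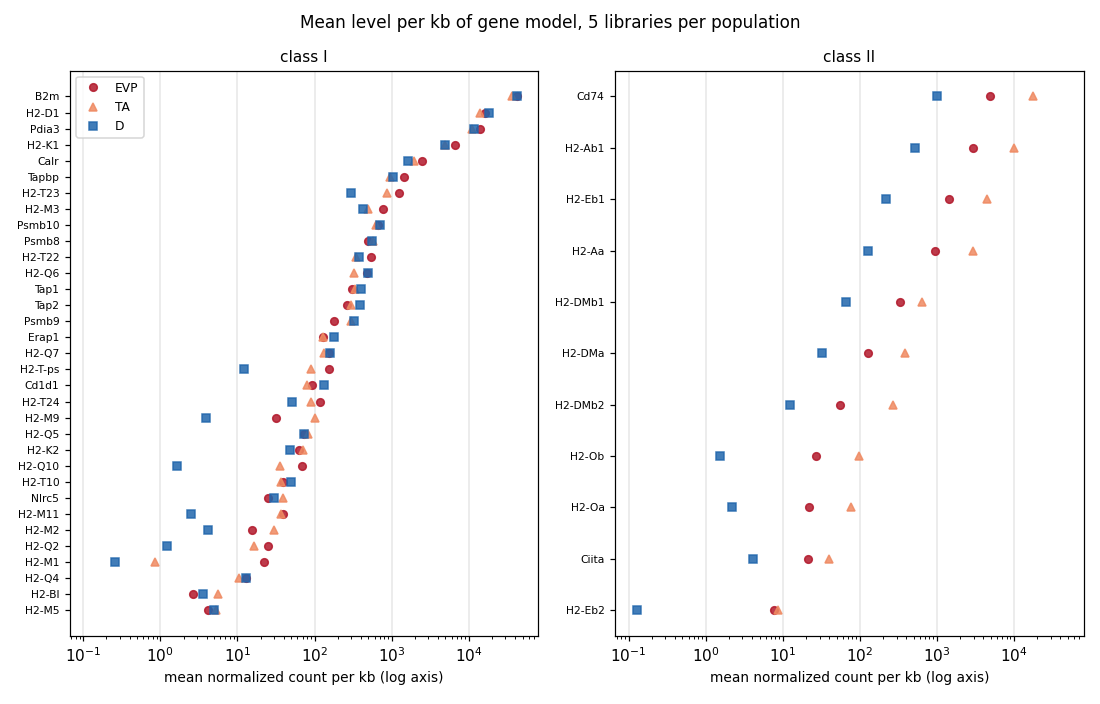
Mean level of each class I gene (left) and class II gene (right), in normalized counts per kb of gene model on a log axis, for EVP (circles), TA (triangles) and D (squares), each a mean of 5 libraries with no error shown. For most class I genes the symbols lie together, with H2-T23, H2-T-ps, H2-Q10, H2-Q2, H2-M9 and H2-M11 among the exceptions in which D is lowest, whereas D is lowest and TA highest for all 11 class II genes.

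Each population was compared with each other one in 1 linear model (limma) of log2(normalized count + 1) over 25549 genes, with Benjamini-Hochberg adjustment over all of them and a threshold of 0.05 on the adjusted p. The median log2 fold change of all genes was 0.46 for EVP over D, 0.24 for TA over D and 0.09 for EVP over TA, and quantile scaling moved these medians to -0.05, -0.10 and 0.01. EVP over D and TA over D share the D libraries, and their values are therefore given side by side only.

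In EVP against D, 7 of 33 class I genes were higher in EVP (11.6% of all genes tested were) and 1 was higher in D (7.46% of all genes were). The former were H2-Q10, H2-T-ps, H2-T23, H2-Q2, H2-T24, H2-M3 and Calr, and the latter was the immunoproteasome subunit Psmb9. Libraries of the populations did not overlap for 5 of the 33 genes, against 17.7% of all genes. The median log2 fold change of the 33 genes was 0.26, below that of all genes. In TA against D, 4 of 33 class I genes were higher in TA, namely H2-Q10, H2-T23, H2-T-ps and H2-M9 (8.21% of all genes were), and 0 were higher in D (4.31% of all genes were), with 7 at an unadjusted p under 0.05 in either direction, a median of 0.10 and 2 genes without overlap (9.25% of all genes). In either direction 24.2% of the class I genes were called in EVP against D and 12.1% in TA against D, where 4859 and 3199 of the 25549 genes were, so that the class I share was at most modestly above the background, and most calls fell on non-classical genes (6 of 20 in EVP against D and 4 of 20 in TA against D).

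**Figure D2:**
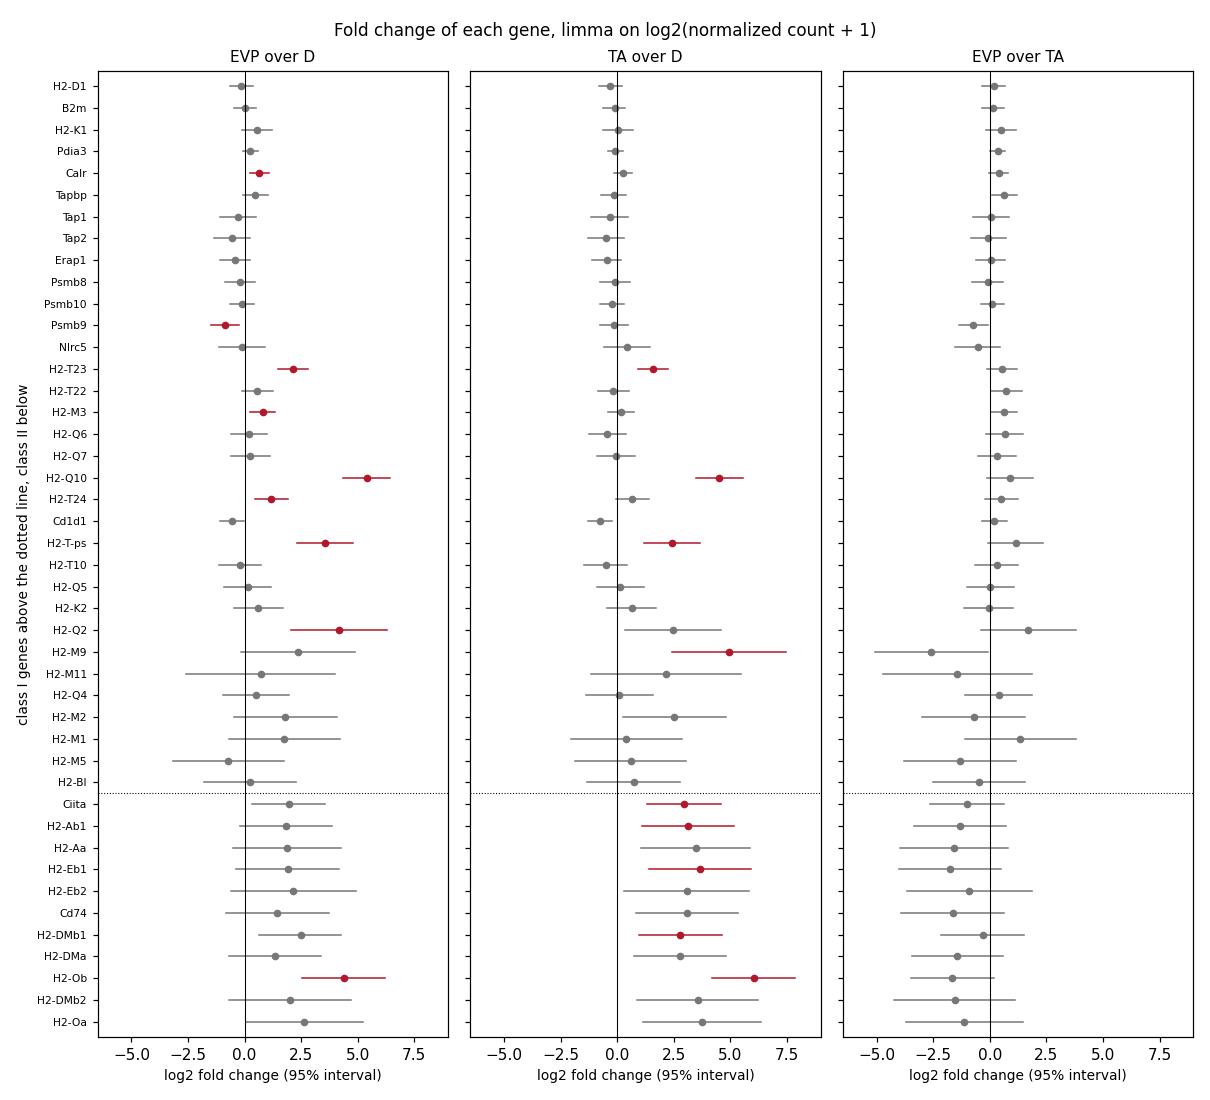
Log2 fold change with its 95% interval for the 33 class I and 11 class II genes, EVP over D, TA over D and EVP over TA, from limma on log2(normalized count + 1). Red marks an adjusted p under 0.05 and grey the rest, with the class I intervals narrow around 0 for the abundant genes at the top, and all 11 class II estimates above 0 in the first and second panels and below 0 in the third.

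The classical heavy chains and B2m were abundant in every library. H2-D1 had 29110, 52560, 36300, 56270 and 34100 normalized counts in EVP replicates 1 to 5, 28630, 38990, 33430, 45950 and 34220 in TA, and 30490, 38500, 34880, 77520 and 54190 in D. The groups overlapped throughout, and the highest library was D replicate 4. Its log2 fold change was -0.14 for EVP over D (95% interval -0.64 to 0.36), -0.31 for TA over D (-0.81 to 0.19) and 0.17 for EVP over TA (-0.33 to 0.67). B2m, the light chain common to all class I molecules, averaged 36100 ± 10600 (SD, n = 5) in EVP, 31800 ± 4960 in TA and 36280 ± 14900 in D. Its intervals were -0.46 to 0.51, -0.61 to 0.36 and -0.34 to 0.63 in the same order.

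H2-K1 averaged 19590 ± 4710 in EVP, 14340 ± 5200 in TA and 14570 ± 7300 in D (SD, n = 5). The EVP libraries lay between 13480 and 25220 and the D libraries between 6339 and 26390, so the groups overlapped. Its log2 fold change for EVP over D was 0.54 (95% interval -0.12 to 1.2) and missed the threshold (limma adjusted p = 0.308). Taken per kb, the ratio of H2-D1 to B2m stayed between 0.329 and 0.518 over all 15 libraries, while that of H2-K1 to H2-D1 went from 0.183 in D replicate 1 to 0.530 in EVP replicate 1. Of H2-K1, 3% of the 76-base windows of its transcripts also occur in other genes, and of H2-D1 5.40%, so that reads of the heavy chains could largely be assigned.

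**Figure D3:**
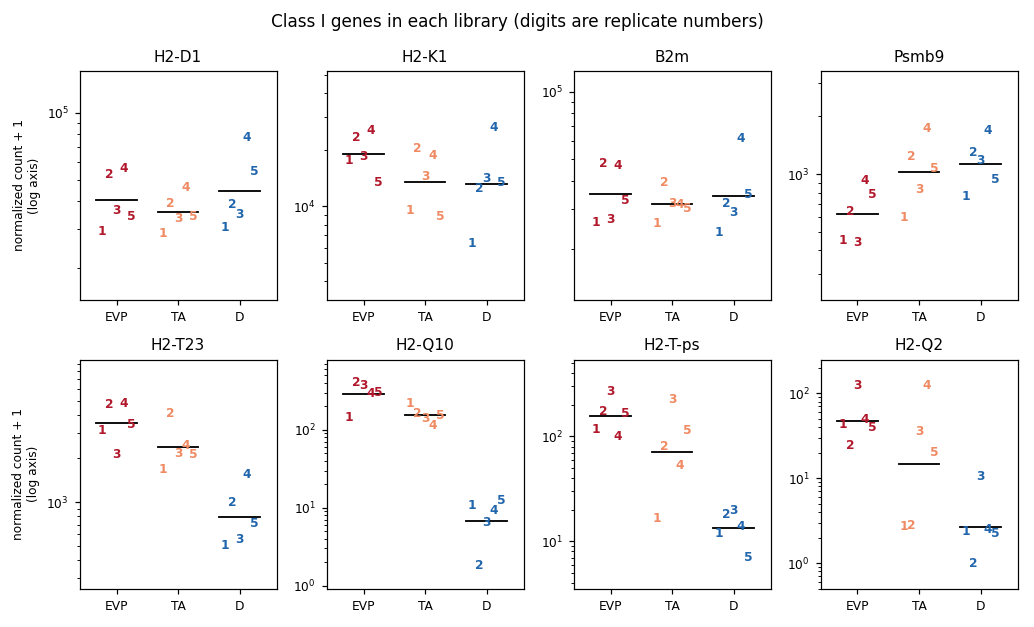
Normalized count + 1 on a log axis for 8 class I genes in the 5 libraries of EVP, TA and D, with digits giving the replicate number and a bar the geometric mean. H2-D1, H2-K1 and B2m overlap in all groups, Psmb9 is lowest in EVP, and the D libraries of H2-T23, H2-Q10 and H2-T-ps lie below all EVP libraries.

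Qa-1, the product of H2-T23, presents leader peptides of other class I chains to the NKG2 receptors of NK and T cells. H2-T23 had 3090, 4733, 2130, 4793 and 3442 normalized counts in EVP replicates 1 to 5, 1691, 4101, 2169, 2448 and 2133 in TA, and 506.6, 991.9, 555.8, 1554 and 711.9 in D. Every EVP and every TA library was above the highest D library. The mean was 4.21 times higher in EVP and 2.90 times higher in TA than in D, with log2 fold changes of 2.14 (SE 0.31, limma adjusted p = 5.81e-05) and 1.60 (SE 0.31, limma adjusted p = 0.00214). The calls for EVP and TA held in each of the 28 alternative analyses, including without any one library, with log2 fold changes of 1.89 to 2.38 and 1.38 to 1.84.

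H2-Q10 encodes a class I molecule that lacks a usual membrane anchor and is known as a product of the liver. It was found at 144.0, 398.4, 370.6, 291.7 and 297.3 normalized counts in EVP, at 215.4, 160.0, 140.6, 112.0 and 153.2 in TA, and at 9.61, 0.816, 5.47, 8.26 and 11.5 in D. No D library came near the lowest EVP or TA library. Its mean was 42.1 times higher in EVP and 21.9 times higher in TA than in D, at log2 fold changes of 5.39 (SE 0.49, limma adjusted p = 3.37e-07) and 4.50 (SE 0.49, limma adjusted p = 7.25e-06), and these calls too held in all 28 alternatives. EVP over TA was 1.92 times (log2 0.89, 95% interval -0.14 to 1.92, limma adjusted p = 0.424). Of the windows of H2-Q10 transcripts, 12.3% occur in other genes, mostly H2-Q7, H2-Q5 and H2-K1, and the level of H2-Q10 was a small part of that of H2-K1, so reads misassigned between these copies could weigh on it. H2-Q7 and H2-Q5, which share the most sequence with it, had log2 fold changes for EVP over D of 0.26 (95% interval -0.58 to 1.1) and 0.14 (-0.90 to 1.18).

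The pseudogene H2-T-ps had a mean of 164.1 ± 66.4 normalized counts in EVP, 95.8 ± 78.9 in TA and 13.1 ± 5.07 in D (SD, n = 5). Its EVP libraries (99.1 to 269.1) were all above those of D (6.04 to 18.8), but TA replicate 1, at 15.5, was not. The log2 fold changes over D were 3.55 (SE 0.58, limma adjusted p = 0.000205) in EVP and 2.40 (SE 0.58, limma adjusted p = 0.01) in TA. H2-Q2 followed in EVP, with 54.5 ± 38.3 against 2.69 ± 3.79 in D and a log2 fold change of 4.16 (SE 1.00, limma adjusted p = 0.00575), and 4 of its 5 D libraries had at most 3 reads. With the 5 libraries of highest olfactory share left out, H2-Q2 narrowly missed the threshold at a fold change that was not smaller (log2 4.48, limma adjusted p = 0.0513). Quantile scaling lost H2-Q2 (log2 2.57, limma adjusted p = 0.219) and H2-T-ps in EVP (2.71, 0.0866) and in TA (1.45, 0.469).

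H2-T24 and H2-M3 were higher in EVP than in D by smaller steps. H2-T24 had 249.3, 359.3, 283.9, 250.2 and 151.4 normalized counts in EVP and 118.1, 81.6, 116.5, 134.5 and 107.6 in D, with no overlap, and the mean was 2.32 times higher (log2 1.17, SE 0.35, limma adjusted p = 0.0234). H2-M3, which presents N-formylated peptides of bacteria and mitochondria, had a mean of 1120 ± 479 in EVP and 618.2 ± 152 in D (log2 0.80, SE 0.27, limma adjusted p = 0.0461). Its highest libraries were EVP replicate 2 at 1876 and EVP replicate 4 at 1318, and the groups overlapped. The H2-T24 call was lost without EVP replicate 2 or 3 or D replicate 2 (limma adjusted p up to 0.0697), and that of H2-M3 without EVP replicate 2 or 4, TA replicate 1 or 5, or D replicate 1, 2 or 3 (up to 0.139). Quantile scaling brought the log2 fold change of H2-T24 down to 0.66 (limma adjusted p = 0.346). Leaving out the 5 libraries of highest olfactory share lost both calls, with log2 fold changes of 1.02 for H2-T24 (limma adjusted p = 0.126) and 0.56 for H2-M3 (0.236), and edgeR lost that of H2-M3 (adjusted p = 0.0903).

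The remaining non-classical genes gave no call against D except H2-M9 in TA. H2-T22, H2-Q6 and H2-Q7 (the last 2 encode Qa-2) had means between 567.5 and 1863 in every population. Cd1d1, which presents lipids to NKT cells, had the opposite tendency, averaging 236.4 ± 62.0 in EVP, 204.4 ± 45.8 in TA and 345.9 ± 80.5 in D. Its log2 fold change was -0.75 for TA over D (95% interval -1.29 to -0.21, limma adjusted p = 0.0677) and -0.55 for EVP over D (-1.09 to -0.01, limma adjusted p = 0.170). Without the 5 libraries of highest olfactory share Cd1d1 passed the threshold in both (log2 -0.99 and -0.75, limma adjusted p = 0.0152 and 0.0369).

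H2-M1, H2-M9, H2-M11 and the H2-M10 genes are known from neurons of the vomeronasal organ, where pheromone receptors are expressed. H2-M1 had 112.4 normalized counts in EVP replicate 1 and at most 3.92 in every other library, and H2-M11 had 193.1 there, 157.4 in TA replicate 3 and at most 19.0 elsewhere. EVP replicate 1 is also the library in which 96.2% of the olfactory receptor genes had a read, and the part of this in the H2-M values was not tested. H2-M9 had 12.1, 339.3, 218.8, 55.6 and 107.1 in TA and 24.7, 0, 0, 1.5 and 2.42 in D (25.6 times higher in TA, log2 4.94, SE 1.19, limma adjusted p = 0.00933), with TA replicate 1 below D replicate 1. This call was lost with quantile scaling (log2 3.63, limma adjusted p = 0.0912) and with edgeR (log2 4.75, adjusted p = 0.0677). In EVP H2-M9 was 186.1 in replicate 1 and 1.31 to 22.1 in the others. Of the 14 genes under the minimum, 6 were H2-M10.1 to H2-M10.6, none of which passed 14.0 in any library, and H2-Q3 had 0 reads in all 15 (an upper limit of 3 reads each).

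Of the genes of the set that cut, transport and load class I peptides, only Psmb9 and Calr were called, both in EVP against D. The others missed the threshold, which does not show them to be equal, as several intervals were wide. Psmb9, the immunoproteasome subunit beta1i, had 449.4, 634.9, 440.1, 923.1 and 785.5 normalized counts in EVP, 594.6, 1239, 831.5, 1731 and 1065 in TA, and 767.4, 1291, 1171, 1699 and 942.2 in D. The lowest libraries of the 15 were EVP replicates 3 and 1, TA replicate 1 and EVP replicate 2. The mean was 1.82 times higher in D than in EVP (log2 -0.87 for EVP over D, SE 0.30, limma adjusted p = 0.0491), and 1.69 times higher in TA than in EVP (log2 -0.73, 95% interval -1.35 to -0.10, limma adjusted p = 0.229). This call was at the edge of the threshold, and it was lost without EVP replicate 1, 2 or 3, TA replicate 2, 3 or 5, or D replicate 2, 3, 4 or 5 (limma adjusted p up to 0.140), without the 5 libraries of highest olfactory share (0.10), with quantile scaling (0.0581) and with edgeR (0.0742). The other subunits, Psmb8 and Psmb10, had log2 fold changes for EVP over D of -0.20 (95% interval -0.87 to 0.47) and -0.11 (-0.63 to 0.41).

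Calr, a chaperone of the loading complex, was the only one of the 6 transport and loading genes to be called. It had 7637, 6585, 6588, 6821 and 8154 normalized counts in EVP and 5066, 4082, 3106, 6595 and 4610 in D, so that only D replicate 4 reached the EVP range. Its log2 fold change was 0.65 (SE 0.20, limma adjusted p = 0.0265), little above the 0.46 by which the median gene differed, and the call was lost without EVP replicate 1 or 5 or D replicate 2, 3 or 5 (limma adjusted p up to 0.0801), without the 5 libraries of highest olfactory share (0.139) and with edgeR (0.114). Tap1 and Tap2 had log2 fold changes for EVP over D of -0.30 (95% interval -1.1 to 0.51) and -0.56 (-1.35 to 0.23), Erap1 of -0.42 (-1.07 to 0.22), Tapbp of 0.48 (-0.06 to 1.03) and Pdia3 of 0.26 (-0.07 to 0.60). The coactivator Nlrc5 averaged 210.9 ± 85.6 in EVP, 333.3 ± 172 in TA and 252.5 ± 131 in D, with intervals that all contained 0.

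Within D, replicate 4 was the highest library for 17 of the 33 class I genes, among them H2-D1, H2-K1 and B2m. The summed class I level was 237000 normalized counts there and 114000 to 175000 in the other D libraries. In EVP replicate 4 was highest for 13 of the 33 and replicate 2 for 10, and in TA replicate 2 was highest for 12 and replicate 4 for 11. The summed class I level nevertheless spanned no more than 2.08 times within any population, and 80.4 to 86.3% of it came from H2-D1, B2m, H2-K1 and Pdia3. The median SD of the 33 genes on the log2 scale was 0.48 in EVP, 0.75 in TA and 0.66 in D, against 0.84, 1.15 and 0.74 for all genes tested.

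The class II genes behaved otherwise. All 11 had a positive log2 fold change for TA over D, with a median of 3.12, and for EVP over D, with a median of 1.94, whereas for EVP over TA all 11 estimates were negative, with a median of -1.43, but 0 were called by limma and 0 had an unadjusted p under 0.05. In TA against D, 5 of 11 were called higher in TA (H2-Ob, Ciita, H2-Eb1, H2-DMb1 and H2-Ab1) and 0 higher in D, beside the 8.21% and 4.31% of all genes given above, and all 11 had an unadjusted p under 0.05. Libraries did not overlap for 3 of the 11 (H2-Ob, Ciita and H2-Eb2), beside 9.25% of all genes. For H2-Eb2 this lay at the floor, with TA replicate 3 at 2.23 and D replicate 1 at 1.37 normalized counts, both under 3 reads. In EVP against D only H2-Ob was called (9.09% of the 11, beside 11.6% of all genes higher in EVP). There, 4 of the 11 had an unadjusted p under 0.05, as had 7100 of all 25549 genes, and 2 were without overlap (H2-Oa and H2-Ob), beside 17.7% of all genes, so these counts in EVP did not stand above the background. The gap for H2-Oa was small, with EVP replicate 1 at 7.02 normalized counts, under 3 reads, and D replicate 1 at 6.86. The spread within populations was wide, as the median SD on the log2 scale shows: 2.41 in TA, 1.87 in EVP and 1.03 in D.

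The count of class II calls in TA against D depended on single libraries. It was 10 without TA replicate 1, 3 without EVP replicate 2 or D replicate 5, and 2 without any 1 of TA replicates 3, 4 and 5 or D replicates 2 and 3. With the 5 libraries of highest olfactory share left out it was 9, and in EVP against D it was then 3. Read counts recovered from the table and tested by edgeR gave 10 of 11 in TA against D and 1 of 11 in EVP against D, and DESeq2 gave 11 and 8.

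Cd74, the invariant chain, had 358.1, 2499, 3384, 21880 and 13240 normalized counts in EVP replicates 1 to 5, 1277, 4386, 15490, 96470 and 30470 in TA, and 1801, 667.8, 780.9, 3065 and 2022 in D. The highest library, TA replicate 4, was 75.5 times the lowest TA library, and TA replicate 1 lay within the D range. In both EVP and TA, replicates 4 and 5 were the highest. The means were 17.8 times higher in TA and 4.96 times higher in EVP than in D, but with this spread the log2 fold changes of 3.08 (95% interval 0.81 to 5.35, limma adjusted p = 0.0738) and 1.45 (-0.82 to 3.72, limma adjusted p = 0.465) missed the threshold. For TA the call was gained without EVP replicate 1 or TA replicate 1 (limma adjusted p down to 0.0143).

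H2-Ab1, the beta chain of I-A, had 726.8, 2766, 3497, 17600 and 13260 normalized counts in EVP, 910.1, 5978, 12010, 83410 and 27760 in TA, and 1304, 862.9, 931.0, 2035 and 1444 in D. The order of the libraries was close to that of Cd74, with EVP replicate 1 below the D range and TA replicate 1 within it. Its log2 fold change for TA over D was 3.12 (SE 0.96, limma adjusted p = 0.0415), and for EVP over D 1.81 (95% interval -0.22 to 3.84). The TA call was lost without any 1 of 11 libraries, EVP replicates 2 and 3, TA replicates 2 to 5 and all 5 of D (limma adjusted p up to 0.106). Its partner H2-Aa had a log2 fold change of 3.46 (95% interval 1.07 to 5.85, limma adjusted p = 0.0552), and H2-Eb1 one of 3.66 (SE 1.07, limma adjusted p = 0.0313, up to 0.0839 without TA replicate 3, 4 or 5 or D replicate 2, 3 or 5). For H2-Aa the call was gained without EVP replicate 1 or 4 or TA replicate 1. Of H2-Ab1, H2-Aa and H2-Eb1, 0% of the 76-base windows occur in other genes.

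The proportions of the chains varied far less than their levels. Over the 15 libraries H2-Ab1 spanned 115 times from lowest to highest. The ratio per kb of Cd74 to H2-Ab1 went only from 0.754 to 2.30, that of H2-Aa to H2-Ab1 from 0.144 to 0.381 and that of H2-Eb1 to H2-Ab1 from 0.221 to 0.694. These ratios are a description of genes that share each library. Cd74, H2-Ab1, H2-Aa and H2-Eb1 made up 74.9 to 95.4% of the summed class II level, with a median of 92.8%.

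**Figure D4:**
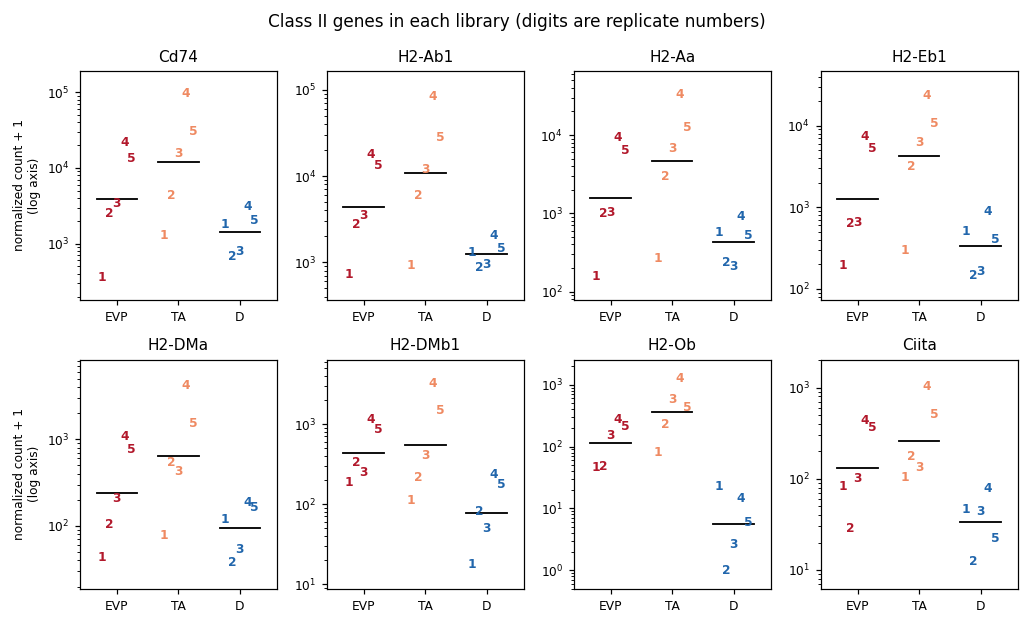
Normalized count + 1 on a log axis for 8 class II genes in the 5 libraries of EVP, TA and D, with digits giving the replicate number and a bar the geometric mean. In EVP and TA replicate 4 is the highest and replicate 5 the next, except that TA replicate 3 is above TA replicate 5 for H2-Ob, and replicate 1 of EVP or TA falls within or below the D range for all but H2-Ob and Ciita, while the populations separate without overlap from D only for H2-Ob in EVP and TA and for Ciita in TA.

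H2-Ob encodes the beta chain of H2-O, which is known from B cells, thymic epithelium and some dendritic cells. It had 45.6, 47.0, 147.3, 278.1 and 209.5 normalized counts in EVP, 79.3, 228.6, 587.1, 1279 and 430.3 in TA, and 22.0, 0, 1.56, 13.5 and 4.84 in D. Every EVP and TA library was above every D library. The mean was 62.2 times higher in TA and 17.4 times higher in EVP than in D, at log2 fold changes of 6.03 (SE 0.87, limma adjusted p = 0.000145) and 4.38 (SE 0.87, limma adjusted p = 0.00119). The TA call held in all 28 alternatives, and the EVP call in 27, the exception being quantile scaling. Its partner H2-Oa, averaging 31.0 ± 30.1 in EVP, 106.6 ± 85.3 in TA and 3.11 ± 2.54 in D, had a log2 fold change for TA over D of 3.76 (95% interval 1.16 to 6.35, limma adjusted p = 0.0549). TA replicate 1 held 0 reads of H2-Oa, and without it the call was gained (limma adjusted p = 0.000453), as it was without D replicate 1.

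The peptide exchange factor H2-DM is made of H2-DMa with H2-DMb1 or H2-DMb2. H2-DMb1 averaged 553.6 ± 425 in EVP, 1083 ± 1310 in TA and 110.9 ± 90.7 in D, with log2 fold changes over D of 2.47 in EVP (95% interval 0.65 to 4.28, limma adjusted p = 0.0550) and 2.79 in TA (SE 0.86, limma adjusted p = 0.0410). The TA call was lost without EVP replicate 2, TA replicate 3, 4 or 5, or D replicate 1, 2 or 3 (limma adjusted p up to 0.106), without the 5 libraries of highest olfactory share (0.0795) and with quantile scaling (0.121), and the EVP call was gained without TA replicate 1 or 4 or D replicate 4. The ratio per kb of H2-DMa to H2-DMb1 was not constant, running from 0.110 in EVP replicate 1 to 3.45 in D replicate 1, both among the libraries of highest olfactory share, and from 0.152 to 1.23 in the other libraries. Of the windows of H2-DMb1 15.7% also occur in H2-DMb2, and of those of H2-DMb2 14.4% occur in H2-DMb1, so that some of their reads could not be told apart. H2-DMa and H2-DMb2 had log2 fold changes for TA over D of 2.77 (95% interval 0.74 to 4.80) and 3.55 (0.88 to 6.23) and were called only without TA replicate 1 among the single libraries left out.

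Ciita, the class II coactivator, had 80.8, 27.4, 99.8, 435.6 and 360.9 normalized counts in EVP, 101.7, 175.8, 131.7, 1014 and 501.9 in TA, and 45.3, 11.4, 43.0, 77.4 and 21.2 in D. All TA libraries were above all D libraries, and in EVP replicate 2 fell within the D range. The mean was 9.71 times higher in TA than in D (log2 2.95, SE 0.77, limma adjusted p = 0.0158), a call that held without any one library but was lost with quantile scaling (log2 2.21, limma adjusted p = 0.167). For EVP over D the log2 fold change was 1.94 (95% interval 0.32 to 3.57, limma adjusted p = 0.0967, and 0.0267 without EVP replicate 2). H2-Eb2 was low, at or under 3 reads in all D libraries, and the TA mean was at least 11.3 times higher than that floor taken as a mean over the D libraries, with 121.4 in TA replicate 4 and 2.23 to 14.1 in the others.

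Markers of cells that carry class II by profession differed in part between the populations. Of 8 dendritic cell markers Flt3 was higher in TA than in D and higher in EVP than in D, and Zbtb46 was higher in D than in both (1 of 8 in each direction, beside 8.21% and 4.31% of all genes in TA against D, and 11.6% and 7.46% in EVP against D). Their median log2 fold change was 2.5 for TA over D and 2.19 for EVP over D. Their summed level was 934 to 6900 normalized counts in TA, 282 to 2110 in EVP and 1340 to 2110 in D. Its mean was 1120 in EVP and 1780 in D. In D most of this sum was Zbtb46, at 961 to 1742 there and 158.7 to 501.3 in EVP, so the D sum mainly reflects this 1 gene. Of the 8 estimates for EVP over D 5 were positive. Flt3 was at 0 to 23.3 in D, Xcr1 at 0 to 24.7, Itgax at 0 to 37.5, Cd209a at 0 to 78.2 and Ccr7 at 0 to 125. Clec9a and Batf3 were at 56.3 to 336 and 26.1 to 102 in D, against 2.61 to 130 and 0 to 133 in EVP, with negative estimates for EVP over D (log2 -1.71 and -1.24, limma adjusted p = 0.242 and 0.681). TA replicate 4, the library highest in all 11 class II genes, had 1139 of Flt3, 1429 of Xcr1 and 562.6 of Itgax, and TA replicate 5 had 716.1, 656.3 and 105.9. In EVP, replicates 4 and 5, the highest in class II, had 454.8 and 507.5 of Flt3, against 11.4 to 90.1 in replicates 1 to 3. The part of dendritic cells in the class II values was not tested.

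Of 10 general leukocyte markers 6 were higher in TA than in D (8.21% of all genes were) and 3 were higher in TA than in EVP (1.94% of all genes were). In EVP against D 0 were higher in EVP and 1, Lcp1, was higher in D (11.6% and 7.46% of all genes were), with a median log2 fold change of 0.53. Their summed level was 9770 to 42300 in TA, 1940 to 12200 in EVP and 7210 to 12000 in D, of which Lcp1 alone was 5719 to 9754 in D. Ptprc, which encodes the general leukocyte antigen CD45, was 118.8 to 389.9 in D, 172.4 to 1356 in EVP and 268.1 to 4460 in TA. Of 10 macrophage and monocyte markers 3 were higher in TA than in D and 6 were higher in TA than in EVP (8.21% and 1.94% of all genes were). In EVP against D 2 were higher in EVP, Csf1r and Cx3cr1 (11.6% of all genes were). The median log2 fold change of the 10 was -0.90, and only these 2 estimates were positive. The sums of the 10 were 8140 to 40700 in TA, 2080 to 12100 in EVP and 4060 to 13200 in D. In EVP, replicates 4 and 5, the highest in class II, had 6760 and 12100, and replicates 1 to 3 had 2080 to 3510. Of 9 B and T cell markers 2 (Ms4a1 and Nkg7) were higher in TA than in D and 1 (Nkg7) was higher in EVP than in D. The shares of all genes were 8.21% and 11.6%, so the count in EVP did not stand above the background. The sums of the 9 were 167 to 4590 in TA, 112 to 721 in EVP and 24.2 to 275 in D. None of these lists had all its markers at 0 in any population, and their part in the class II values was not tested either.

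**Figure D5:**
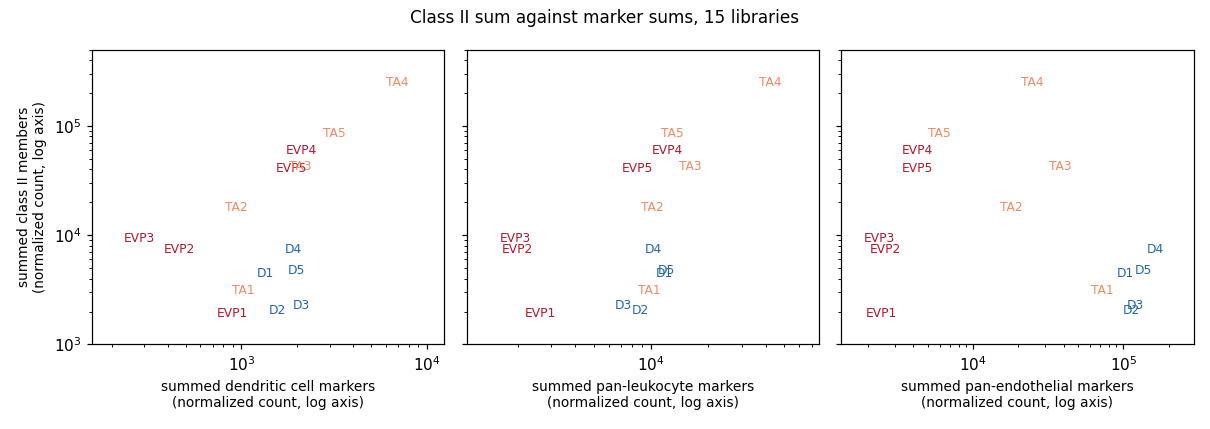
Summed normalized counts of the class II genes against those of 8 dendritic cell, 10 general leukocyte and 10 endothelial markers, on log axes, with each label 1 of the 15 libraries. TA replicate 4 is highest for class II (248000) and for the dendritic (6900) and leukocyte (42300) sums, while the D libraries combine endothelial sums of 103000 to 163000 with class II sums of 2040 to 7450. Most of the dendritic sum in D is Zbtb46.

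The summed class II level was 1910, 7420, 9400, 59600 and 40400 normalized counts in EVP replicates 1 to 5, 3120, 17800, 42800, 248000 and 85600 in TA, and 4430, 2040, 2260, 7450 and 4760 in D. It spanned 79.5 times in TA, 31.2 times in EVP and 3.65 times in D. The summed class I level spanned 1.43, 1.58 and 2.08 times in the same populations. The endothelial sums of TA replicates 1 to 5 were 72900, 17900, 38000, 24700 and 5980. Replicate 1 was thus highest in these and lowest in class II, and replicate 5 lowest in these and second highest in class II. TA replicate 2 was second lowest in both, and TA replicate 4, the highest in class II, was in the middle of the endothelial sums. A relation between the 2 sums was not tested. In D, which had the most endothelial RNA, class II transcripts were nonetheless present in every library, with at least 667.8 normalized counts of Cd74 and 862.9 of H2-Ab1.

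Between EVP and TA, 0 of the 45 genes were called by limma, where 1.56% of all genes were called with the higher level in EVP and 1.94% with the higher level in TA, and 0 of the 45 were without overlap (4.29% of all genes). At an unadjusted p under 0.05 there were 6, all of class I: Tapbp, H2-T22, H2-M3 and Pdia3 had positive estimates for EVP over TA, and Psmb9 and H2-M9 negative ones. Both edgeR and DESeq2 also called 0. The intervals of the class II genes were wide, for example -3.34 to 0.73 for H2-Ab1 and -3.91 to 0.63 for Cd74 on the log2 scale, so that the size of any class II difference between EVP and TA was poorly determined. Those of H2-D1 and B2m, -0.33 to 0.67 and -0.34 to 0.63, were narrower.

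Other genes of the pathway were looked at in 5 lists. Their counts stand beside the shares of all genes called, which were 11.6% higher in EVP and 7.46% higher in D for EVP against D, 8.21% higher in TA and 4.31% higher in D for TA against D, and 1.56% higher in EVP for EVP against TA. Of 14 genes of general peptide processing and loading, 1 was higher in EVP than in D and 1 higher in D. The former was the cytosolic aminopeptidase Npepps, at 1320 ± 22.3 against 578.4 ± 153 (log2 1.23, SE 0.20, limma adjusted p = 0.0002), which was also higher than in TA (777.2 ± 145, limma adjusted p = 0.0390). The latter was the tripeptidyl peptidase Tpp2 (log2 -0.47, SE 0.16, limma adjusted p = 0.0454). In TA against D 0 of the 14 were called by limma, with 2 at an unadjusted p under 0.05. The median log2 fold change was -0.12 in EVP and -0.16 in TA over D.

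Of 7 endosomal proteins that process class II antigen, 2 were higher in EVP than in D (Ctsl and Ifi30), 2 were higher in TA than in D (Ctsd and Ifi30) and 0 were called between EVP and TA by limma, with 3 at an unadjusted p under 0.05. Ifi30, the lysosomal thiol reductase GILT, averaged 399.7 ± 196 in EVP, 505.6 ± 283 in TA and 137.0 ± 37.2 in D, without overlap against D (limma adjusted p = 0.0156 and 0.00644). Cathepsin L, Ctsl, was 1.72 times higher in EVP than in D, and cathepsin D, Ctsd, 2.05 times higher in TA than in D. The median of the list was 0.29 for EVP over D and 0.85 for TA over D.

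Of 21 enhanceosome subunits and upstream regulators, 2 were higher in EVP than in D and 2 higher in D. Socs1, the feedback inhibitor of interferon receptor kinases, was at 555.7 ± 161 in EVP, 183.9 ± 93.0 in TA and 107.5 ± 43.4 in D (EVP over D log2 2.37, SE 0.44, limma adjusted p = 0.000657). Stat2, which carries type I interferon signals, was 1.68 times higher in EVP than in D. In the other direction, Irf8, a factor of myeloid and dendritic cells, was 2.79 times higher in D (log2 -2.80, SE 0.81, limma adjusted p = 0.0203), and the receptor chain Ifnar1 1.38 times. Irf8 was split within EVP, at 66.7 to 151.5 normalized counts in replicates 1 to 3 and at 2313 and 2155 in replicates 4 and 5. The latter lay within the D range of 1679 to 4166. Between EVP and TA, Socs1, Stat2 and Jak1 were higher in EVP, and between TA and D only Ifnar1 was called, 1.46 times higher in D. The genes encoding RFX, NF-Y and CREB, which bind the X and Y boxes, gave no call in any comparison.

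Of 11 further class I-like genes 10 were tested, 2 were higher in EVP than in D and 3 higher in D. Mr1, which presents vitamin B metabolites, was 2.43 times higher in EVP and 1.98 times higher in TA than in D, and Mill2 9.49 and 5.01 times. Raet1e, a ligand of the activating receptor NKG2D, was 5.35 times higher in D than in EVP (312.3 ± 79.4 against 58.4 ± 27.7), the iron regulator Hfe 2.06 times, and Procr, the endothelial protein C receptor, 2.41 times. Of 12 co-stimulatory and checkpoint ligands 11 were tested, with 3 higher in EVP (Tnfsf9, Icosl and Tnfsf4) and 2 higher in D (Cd40 and Lgals9). Tnfsf9, the ligand of 4-1BB, was at 1289 ± 414 in EVP, 620.1 ± 358 in TA and 129.2 ± 79.7 in D, and Icosl was 9.54 times higher in EVP and 9.81 times higher in TA than in D. Cd40, which dendritic, B and endothelial cells carry, was 4.12 times higher in D than in EVP. In TA against D the calls were Mr1, Mill2 and Procr in the former list and Icosl, Tnfsf9 and Lgals9 in the latter.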

How the data were processed

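The data were 15 RNA sequencing libraries of sorted cells, 5 per population. Per the labels and the study's methods, the authors amplified cDNA by a variant of Smart-Seq2, mapped reads to GRCm38 (STAR 2.5.3a), counted them per gene against Ensembl annotation with HTSeq-count and divided the counts by DESeq2 1.10.1 size factors. The values deposited by the authors are therefore a signal, normalized counts, whose steps gave back whole reads for 100% of values (tolerance 0.01). The authors also deposited their own comparisons of each pair of populations (fold changes and p-values), which were not used. Reads carry no molecular identifiers, so limits from read numbers cover counting error only.

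The main test was limma 3.58.1 (R 4.3.3, trend, two-sided) on log2(normalized count + 1) of 25549 genes with a mean of at least 5, all 15 libraries sharing 1 estimate of the spread. It was tested on simulated data first. Alternatives were other pseudocounts, minima and scalings, array weights, a replicate block, edgeR 4.0.16 and DESeq2 1.42.0 on the recovered reads, and libraries left out. Any gene of the set with a mean of at least 5 could be named, and of other lists those past the threshold. Levels per kb used exon lengths of a later annotation of the same build, whose coordinates were the same for 96.4% of genes. Log2 fold changes are on the log2(normalized count + 1) scale, which understates those of low genes. Values given as times higher are ratios of mean normalized counts, except where a floor is named. They can differ from the log2 fold changes where the libraries of a population differ widely. The genes and lists were chosen with earlier results of these data known.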

Additional observations from a re-analysis of the deposited data

Results flagged for a closer look

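Over 45 genes and 3 populations, 135 groups of 5 libraries were examined for a library far from its group on the log2 scale (a gap above 0.71 of the range), and 6 (4.44%) had one, while chance alone gives about 1 in 20. H2-M2 and H2-M11 in EVP replicate 1 were at 77.2 and 193 normalized counts, where the other EVP libraries were at 6.54 to 13.1 and at 0 to 0.799. H2-M1 in D replicate 1 was at 1.37, which is 1 read, with 0 in the other D libraries. H2-Oa in TA replicate 1 was at 0, against 50.1 to 221 in the other TA libraries. H2-M3 in TA replicate 4 was at 1050, against 579 to 676 in the rest of TA. Nlrc5, the class I coactivator, was at 364 in EVP replicate 4, against 167 to 181 in the other EVP libraries.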

How the results depend on the processing

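Alternatives changed counts of calls, and 0 of the log2 fold changes followed across alternatives changed sign. Class I calls in EVP against D (8) were 4 with quantile scaling, 5 with edgeR, 5 without the 5 libraries of highest olfactory share and 4 to 8 without single libraries. In TA against D (4) they were 2 with quantile scaling, 7 with array weights, and 4 to 5 without single libraries. Class II calls in EVP against D (1) were 2 with a minimum mean of 20, 0 with quantile scaling, 10 with array weights, 3 with only the 2 populations fitted, 8 with DESeq2, 2 without the replicates 1, 3 without the 5 libraries and 1 to 3 without single libraries. In TA against D (5) they were 2 without a minimum, 3 with quantile scaling, 11 with array weights, 10 with edgeR, 11 with DESeq2, 10 without the replicates 1, 9 without the 5 libraries and 2 to 10 without single libraries. Calls over all 25549 genes moved as well with some settings. Array weights raised them from 4859 to 7609 in EVP against D and from 3199 to 5054 in TA against D. Quantile scaling lowered those in TA against D to 2117. The cause of these changes was not tested.

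Same-numbered libraries of different populations did not all deviate together (correlations from -0.136 to 0.689, not all above 0.1), and no source states what a number marks, so the libraries were not treated as paired. Those numbered 1, 4 and 5 correlated at 0.359 to 0.689, each best with its own number, which is a hint of a shared origin from the data and not from the design. With a replicate block, class I calls were 9 in EVP against D, 7 in TA against D and 2 in EVP against TA, and class II calls were 4, 10 and 0. The calls that the block added included Cd74 (limma adjusted p = 0.00545), H2-Aa (0.00576), H2-DMa (0.00513), H2-DMb2 (0.0278), H2-Oa (0.0373) and Cd1d1 (0.0421) in TA against D, and H2-DMb1 (0.000143), Ciita (0.0153) and H2-Ab1 (0.0433) in EVP against D. Depth limits the low genes most, above all in EVP replicate 1, where 3 reads are worth 10.5 normalized counts.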
